A study of Mus musculus with 10 samples.

Results

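The 10 genes of MHC class II antigen presentation were taken by symbol from the 48526 rows of a table of read counts, and all 10 were found. They are the genes of the class II chains (H2-Aa, H2-Ab1 and H2-Eb1), the invariant chain (Cd74), the peptide exchange factor H2-DM (H2-DMa, H2-DMb1 and H2-DMb2), its modulator H2-O (H2-Oa and H2-Ob) and the transactivator (Ciita). The table covered 5 libraries from mice exposed to acute mental stress and 5 from non-stressed mice. Stress was applied for 3 h a day on 3 successive days, and the aortae were then taken. The animals of both groups are labelled ApoE with no further genotype, and the labels give neither age, sex, stress procedure nor whether animals were pooled. RNA came from cells sorted by flow cytometry that are labelled aortic endothelial cells. Nothing says that the numbered samples of a group are separate animals, so each p reflects only the variation among these samples, which may be technical.

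The libraries held 18020220 to 38237346 counts each, and 3 counts, the limit that a count of 0 allows for counting error only, amount to 0.0785 to 0.166 CPM (reads per 1000000 of the library). The markers went against the cell label. Of 12 endothelial markers, Tek, Cldn5 and Emcn had no read in any library, Cdh5 stayed at or below 0.994 CPM, and the list summed to 34.5 to 85.1 CPM in stressed and 39.6 to 91.2 CPM in non-stressed libraries. The 8 classical monocyte markers summed to 13994 to 17063 CPM in stressed and 8497 to 12959 CPM in non-stressed libraries. The list did not move as 1, since 5 had a positive and 3 a negative log2 fold change, stressed over non-stressed (median 0.18). Chil3 alone had 3134 to 4266 CPM in stressed and 894 to 1416 CPM in non-stressed libraries. Its log2 fold change was 1.64 (edgeR adjusted p = 4.1e-06), while Ly6c2 and Ccr2 were at -0.29 and -0.077. The part of the monocyte level in the values below was not tested, and those values are given for the sorted cells, with no cell type attached. Replicates 2, 3 and 4 of both groups had more than 100 Ddx3y reads (a Y-linked gene), and replicates 1 and 5 of both groups did not. Xist, the transcript of the inactive X chromosome, went the other way. It had 427 to 660 CPM in replicates 1 and 5 of both groups and 0 CPM in replicates 2, 3 and 4.

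Class II molecules present peptides from the endosomal route to CD4 T cells. An alpha and a beta chain assemble on the invariant chain, proteases trim that chain down to a fragment in the peptide groove, and H2-DM exchanges the fragment for a peptide. H2-O binds H2-DM and restrains it, and is known mainly from B cells. Dendritic cells, B cells and macrophages carry class II at the surface, while classical monocytes carry little. Ciita is a co-activator that does not itself bind DNA. It drives the class II chain, invariant chain and H2-DM genes by docking on a complex of RFX, CREB and NF-Y factors at the promoters.

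The docking complex recognises an X box, bound by RFX with a CREB site beside it, and a Y box, which is an inverted CCAAT bound by NF-Y. Promoter sequences from RefSeq (GRCm38.p6, the assembly also called mm10) were found for 7 of the 10 genes. They were searched on both strands in the 250 bases before the transcription start for GATTGG, a Y box core, for an X box form (AAC, any 2 bases, then ATGATG), and for the CREB site TGACGTCA. These letters were chosen after the promoters had been read, so their presence is a description. The windows below run from base -130 to base -26, counted back from -1 just before the start, and are shown because they place these elements in the genes whose levels follow. Capitals mark the matches.
H2-Aa (chr17:34287849-34287953, minus strand): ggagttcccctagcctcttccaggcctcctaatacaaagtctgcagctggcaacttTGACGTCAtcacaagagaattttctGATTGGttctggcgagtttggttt
H2-Eb1 (chr17:34305737-34305841, plus strand): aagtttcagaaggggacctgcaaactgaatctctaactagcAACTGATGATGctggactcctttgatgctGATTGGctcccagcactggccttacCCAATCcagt
H2-DMb1 (chr17:34153061-34153165, plus strand): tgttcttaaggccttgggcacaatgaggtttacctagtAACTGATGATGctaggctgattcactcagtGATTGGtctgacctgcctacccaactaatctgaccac
H2-DMb2 (chr17:34145119-34145223, plus strand): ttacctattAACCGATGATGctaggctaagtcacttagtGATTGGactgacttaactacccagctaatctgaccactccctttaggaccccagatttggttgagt
H2-Ob (chr17:34238775-34238879, plus strand): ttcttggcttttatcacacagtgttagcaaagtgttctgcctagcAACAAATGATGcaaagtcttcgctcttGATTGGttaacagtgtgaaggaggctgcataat
H2-Oa (chr17:34092249-34092353, plus strand): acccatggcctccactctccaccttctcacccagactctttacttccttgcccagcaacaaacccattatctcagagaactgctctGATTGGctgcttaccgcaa

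The X box form stood before GATTGG in H2-Eb1, H2-DMb1, H2-DMb2 and H2-Ob, with 18, 19, 19 and 16 bases between them. H2-Aa lacked this X box form and had TGACGTCA 17 bases before its GATTGG. H2-Oa had GATTGG at -44 to -39 only. H2-DMa had 2 annotated starts, of which the first had no match and the second only GATTGG at -199 to -194. Of all 32851 promoters searched in the same way, 14.6% held GATTGG, 0.119% the X box form, 1.55% TGACGTCA and 0.0304% both GATTGG and the X box form. The matches do not overlap each other. All members except Cd74 and Ciita lie on chromosome 17 (Cd74 is on chromosome 18 and Ciita on chromosome 16).

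Scaled by exon length so that genes can be set side by side, Cd74 was the highest of the 10 in every library, at a median level of 653 CPM per kilobase. H2-Ab1 followed at 125, H2-Eb1 at 105 and H2-Aa at 85.0 CPM per kilobase, in that order in 10 of 10 libraries. H2-DMb1 (55.8) and H2-DMa (53.6) were not separated, with H2-DMb1 the higher in 6 of 10 libraries. H2-DMb2 (9.82), Ciita (6.30) and H2-Ob (5.08) came next, with H2-DMb2 above Ciita in 9 and Ciita above H2-Ob in 7 of 10 libraries. H2-Oa was the lowest in every library, at 3.56 CPM per kilobase. Together the 10 genes took 0.138% to 0.234% of the counts in stressed and 0.203% to 0.772% in non-stressed libraries.

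The genes of the class II chains stood lower in the stressed libraries, with overlapping groups. H2-Aa, the alpha chain of the I-A molecule, had 335, 283, 233, 311 and 156 CPM in stressed replicates 1 to 5, against 460.0, 1331, 421, 493 and 266 CPM in non-stressed replicates 1 to 5. Non-stressed replicate 2 stood far above all others, and non-stressed replicate 5 lay among the stressed ones. Its log2 fold change was -1.17 (SE 0.34, 95% interval -1.89 to -0.45; edgeR quasi-likelihood test, adjusted p = 0.752).

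H2-Ab1, the beta chain that pairs with H2-Aa, had 324, 290.1, 262, 317 and 154 CPM in stressed and 459, 1158, 401, 509.8 and 275 CPM in non-stressed replicates 1 to 5, a log2 fold change of -1.06 (95% interval -1.70 to -0.41). The same 2 libraries, non-stressed replicate 2 and stressed replicate 5, were the highest and the lowest. H2-Eb1, the beta chain of the I-E molecule, had 216, 182, 119, 193 and 85.4 CPM in stressed and 288, 796, 253, 282 and 142 CPM in non-stressed replicates, a log2 fold change of -1.15 (95% interval -1.92 to -0.37). H2-Ea, the alpha chain partner of H2-Eb1, is not transcribed from the C57BL/6 haplotype. It had 16 reads in all 10 libraries together.

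Cd74 encodes the invariant chain, which fills the groove of new class II molecules and steers them to endosomes. It had 1124, 973, 809, 1067 and 647 CPM in stressed and 1632, 3715, 1312, 1802 and 999 CPM in non-stressed replicates 1 to 5. Only stressed replicates 1 and 4 exceeded the lowest non-stressed library. Its log2 fold change was -1.03 (95% interval -1.61 to -0.45, edgeR adjusted p = 0.684), with the smallest p of the 10 genes and rank 32 among the 13334 genes tested.

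Ciita, the transactivator of the group, had 65.7, 57.8, 43.2, 46.9 and 40.1 CPM in stressed and 62.3, 169.5, 67.4, 92.1 and 45.4 CPM in non-stressed replicates. Stressed replicate 1 exceeded 2 of the non-stressed libraries, and non-stressed replicate 2 was again the highest. The log2 fold change of -0.78 (SE 0.28, 95% interval -1.37 to -0.19) had an edgeR adjusted p = 0.836. Ciita overlaps Dexi, which had 8.96 to 19.4 CPM, and whether the counting used strand is not stated, so reads of the shared stretch are uncertain.

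The H2-DM genes had values nearer to 0 than the chains, a difference that was not tested. H2-DMb1, the main beta chain gene of H2-DM, had 65.8, 69.9, 91.5, 96.7 and 65.9 CPM in stressed and 97.5, 181, 96.1, 130.3 and 77.3 CPM in non-stressed replicates, a log2 fold change of -0.58 (SE 0.20, edgeR adjusted p = 0.829). Stressed replicates 3 and 4 exceeded the lowest non-stressed library, so the groups overlapped. H2-DMa, the single alpha chain gene, had 139, 135, 174, 204 and 195 CPM in stressed and 131, 262, 185, 213 and 184 CPM in non-stressed replicates. The groups overlapped widely, the lowest library was non-stressed replicate 1, and the log2 fold change was -0.20 (95% interval -0.54 to 0.14). H2-DMa overlaps Brd2, at 476 to 554 CPM, so its reads are uncertain in the same way. H2-DMb2, a close copy of H2-DMb1 with which it may share reads, had 11.4 to 19.5 CPM in stressed and 9.67 to 33.3 CPM in non-stressed libraries, with a log2 fold change of -0.38 (95% interval -0.96 to 0.20).

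The H2-O genes showed the widest uncertainty. H2-Ob, the beta chain, had 43.4, 30.04, 21.6, 32.2 and 13.4 CPM in stressed and 48.2, 69.4, 24.7, 16.2 and 19.9 CPM in non-stressed replicates, a log2 fold change of -0.34 (95% interval -1.13 to 0.45). H2-Oa, the alpha chain, had 5.59, 6.92, 3.50, 4.44 and 2.97 CPM in stressed and 6.73, 8.45, 5.59, 0.747 and 2.33 CPM in non-stressed replicates, a log2 fold change of -0.023 (95% interval -1.08 to 1.04). Non-stressed replicate 4 held 19 reads of H2-Oa, the fewest of any library, while it had the second highest level of Cd74.

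**Figure D1:**
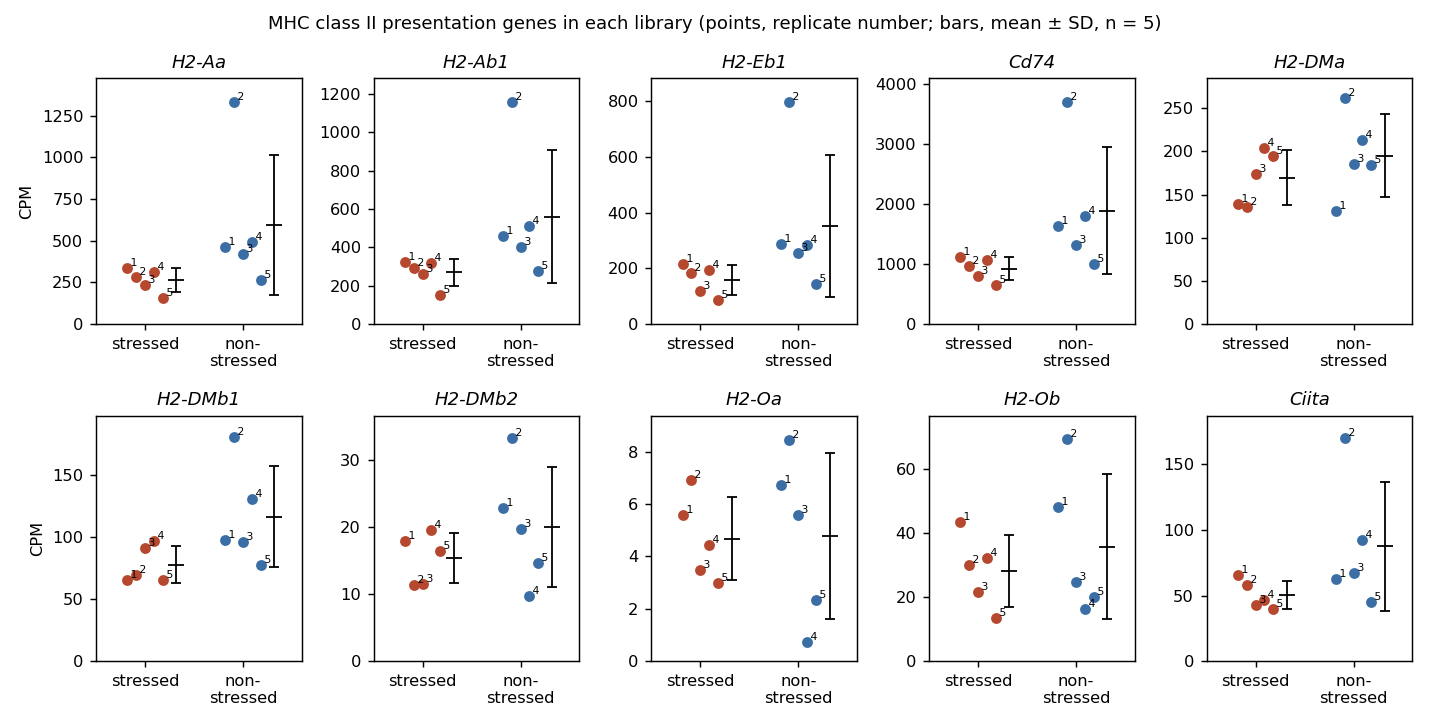
Level of each of the 10 genes in CPM (vertical axis, linear, from 0) in stressed and non-stressed libraries, with each point labelled by its replicate number and the mean ± SD (n = 5) drawn beside it. Non-stressed replicate 2 is the highest library for all 10 genes, at 3715 CPM for Cd74, and the groups overlap for all 10.

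All 10 genes passed the filter on low counts and all 10 had a negative log2 fold change, with a median of -0.68 against 0.0045 over all genes tested, of which 49.1% were negative. At an unadjusted p under 0.05, 6 of the 10 were lower in stressed libraries (H2-Aa, H2-Ab1, H2-Eb1, Cd74, H2-DMb1 and Ciita), where 2.95% of all genes tested were lower by that rule. DESeq2 and limma-voom also placed 6 there, where 2.82% and 4.81% of the genes given a p were lower with these tools. After Benjamini-Hochberg adjustment over all genes 0 of the 10 passed with edgeR, DESeq2 or limma-voom, and 0.0075% of genes did with edgeR. Without the filter on low counts 1 of the 10 did, Cd74, where 0.0129% of genes were lower by that rule. For 0 of the 10 did the groups of libraries not overlap, against 1.09% of all genes. H2-Aa, H2-Ab1, H2-Eb1, Cd74 and Ciita vary together, so the 10 genes are not independent tests. H2-DMa follows Cd74 least of the group (Pearson's r = 0.32 with group means removed).

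Size rested in large part on non-stressed replicate 2. Without it the log2 fold changes were -0.64 for Cd74, -0.37 for H2-DMb1, -0.40 for Ciita, -0.075 for H2-DMa and -0.12 for H2-DMb2, while H2-Oa and H2-Ob turned to 0.28 and 0.046. At an unadjusted p under 0.05, 5 of the 10 were then lower, without Ciita, and 2.28% of all genes were.

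Markers of other cells that carry class II are set beside these genes. Of the 12 conventional dendritic cell markers tested, 9 had a negative log2 fold change, with a median of -0.41 and 0 past the adjusted threshold (edgeR; Cd209a, Dpp4, Clec9a and, with a positive sign, Flt3 had an unadjusted p under 0.05). That list summed to 639 to 710.2 CPM in stressed and 634 to 824 CPM in non-stressed libraries, with its highest sum in non-stressed replicate 2. Naaa alone had 307 to 402 CPM of that sum, with a log2 fold change of 0.13 (SE 0.071). The sum did not follow Naaa, which in non-stressed replicate 2 had 356 CPM, below its level in every stressed library. Levels within the list differed widely. Ccl17 and Fscn1, markers of mature dendritic cells, stayed at or below 0.589 CPM, and Zbtb46, which marks conventional dendritic cells, at 0.610 to 7.94 CPM. Higher levels were found for Ccr7 (4.44 to 39.2 CPM), Flt3 (26.6 to 62.3 CPM), Clec10a (35.8 to 68.3 CPM) and Cd209a (42.2 to 126 CPM). With the mean log2(CPM + 1) of this list as a covariate, the log2 fold changes were -0.32 for H2-Aa (SE 0.21), -0.34 for H2-Ab1, -0.25 for H2-Eb1, -0.38 for Cd74 (SE 0.17), -0.25 for H2-DMb1 and -0.074 for Ciita (SE 0.17), and 1 of the 10, Cd74, was lower at an unadjusted p under 0.05, as were 1.7% of all genes.

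All 14 B cell markers were tested and had negative log2 fold changes, with a median of -0.30 and 0 past the adjusted threshold. They summed to 405 to 759 CPM in stressed and 526 to 1165 CPM in non-stressed libraries. With the B cell level as a covariate, Cd74 stood at -0.90 (SE 0.20), H2-Aa at -0.97 (SE 0.24) and Ciita at -0.68 (SE 0.24), while H2-Ob was at 0.00043 (SE 0.16) and H2-Oa at 0.48 (SE 0.35). 

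In 4 other marker lists most genes tested shared a sign, but the sums of all 4 overlapped between the groups. Of the 6 plasmacytoid dendritic cell markers tested, 5 had negative values, with a median of -0.72. All 8 listed summed to 161 to 197 CPM in stressed and 178 to 212 CPM in non-stressed libraries, highest in non-stressed replicate 2. Tcf4 alone had 99.1 to 143 CPM of that sum and Runx2 34.7 to 80.9 CPM, while Siglech stayed at 0.243 to 3.58 CPM. Of the 7 macrophage markers tested, 5 had positive values, with a median of 0.32, while Mrc1, a mannose receptor, was at -1.04 (SE 0.35, edgeR adjusted p = 0.829); the list summed to 441 to 521 CPM in stressed and 379 to 469 CPM in non-stressed libraries. Of the 10 T and NK cell markers 8 were negative, with a median of -0.62 and sums of 11.1 to 73.3 CPM in stressed and 19.7 to 109 CPM in non-stressed libraries. All 7 erythroid markers were positive, with a median of 0.72 and sums of 1172 to 5528 CPM in stressed and 1333 to 2781 CPM in non-stressed libraries. None of the markers of these 4 lists passed the adjusted threshold (edgeR), and their part in the class II values was not tested. In bulk RNA, fewer cells of a type and less RNA per cell cannot be told apart.

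**Figure D2:**
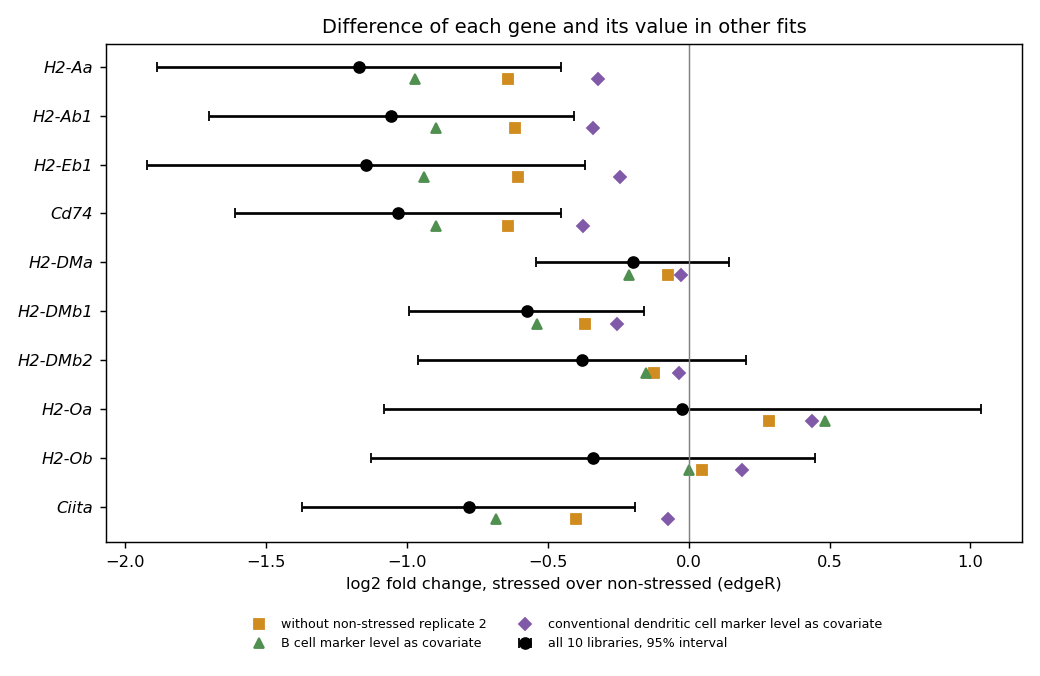
Log2 fold change of each gene, stressed over non-stressed (horizontal axis, edgeR), with its 95% interval over all 10 libraries in black and the values of 3 other fits below it. Cd74 is at -1.03 over all libraries, -0.64 without non-stressed replicate 2, -0.90 with the B cell marker level and -0.38 with the conventional dendritic cell marker level as covariate.

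The 10 genes kept different proportions to each other between libraries. H2-Aa and H2-Ab1 kept nearly the same ratio everywhere, from 0.889 to 1.15 in CPM, although the level of H2-Aa itself varied with an SD of 0.83 on the log2 scale over the 10 libraries. The log2 ratio of a gene to Cd74 had an SD of 0.15 for H2-Aa, 0.12 for H2-Ab1, 0.23 for H2-Eb1 and 0.22 for Ciita. It was 0.37 for H2-DMb1, 0.64 for H2-DMa, 0.60 for H2-DMb2, 0.59 for H2-Ob and 1.14 for H2-Oa. H2-Aa, H2-Ab1, H2-Eb1 and Ciita thus held their proportions to Cd74 more closely than the H2-DM and H2-O genes did. Part of that spread lay between the groups. The mean log2 ratio to Cd74 in stressed minus that in non-stressed libraries was 0.72 for H2-DMa, 0.38 for H2-DMb1 and 0.61 for H2-DMb2. It was 1.25 for H2-Oa and 0.68 for H2-Ob, against -0.087 for H2-Aa, -0.018 for H2-Ab1, -0.073 for H2-Eb1 and 0.26 for Ciita. The H2-Oa value rests in part on non-stressed replicate 4, with 19 reads. Its log2 ratio was -11.2, where the other non-stressed libraries had -8.78 to -7.88.

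H2-Ob held its ratio to the B cell markers more closely than its ratio to Cd74, with an SD of 0.29 for the log2 ratio to the mean of the B cell list against 0.59 to Cd74. For H2-Oa these SDs were 0.56 and 1.14, and for H2-DMb2 they were 0.43 and 0.60. The order was the other way for H2-Aa, at 0.70 to the B cell list and 0.15 to Cd74, and for Ciita, at 0.67 and 0.22. Non-stressed replicate 4 shows both patterns at once. It had the lowest mean B cell level, 3.43 on the log2 CPM scale where the other libraries had 3.69 to 5.63, and its H2-Ob level of 16.2 CPM was the lowest of its group. Its Cd74 and Ciita levels, 1802 and 92.1 CPM, were the second highest of all libraries. These SDs are descriptions over 10 libraries of sorted cells, and no test was made of them.

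**Figure D3:**
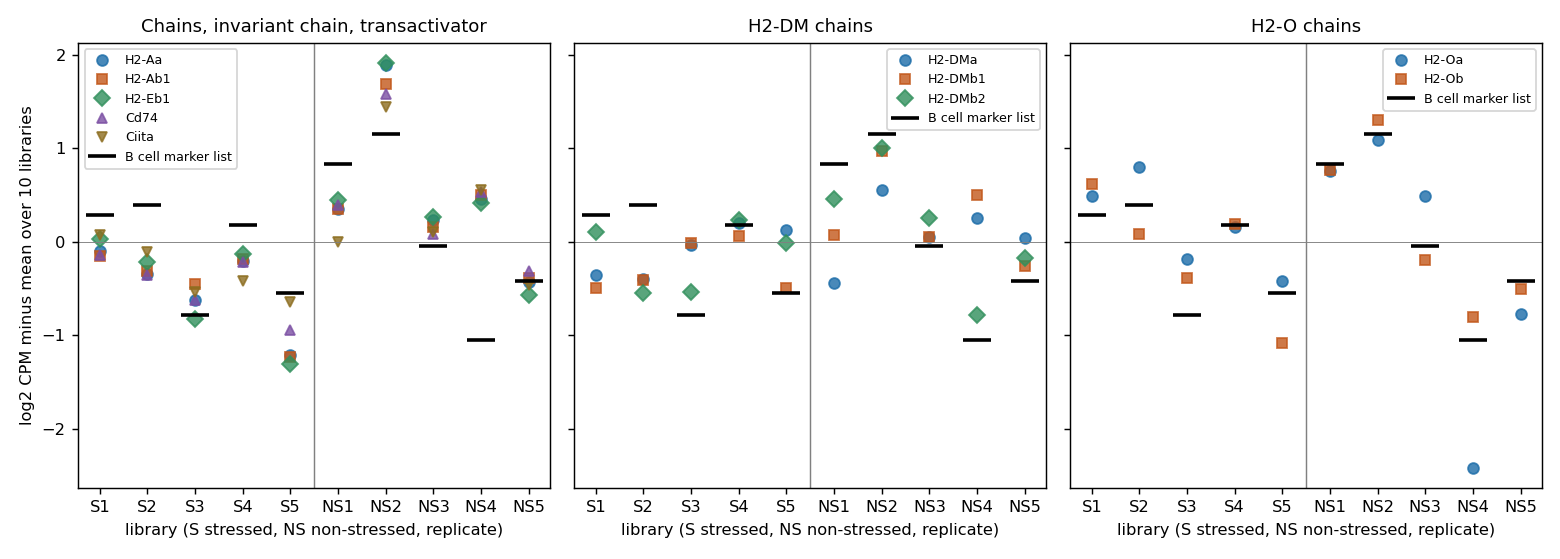
Level of each gene in each library as log2 CPM minus its mean over the 10 libraries (vertical axis), by library (horizontal axis, stressed left of the line), with the mean of the B cell marker list as black bars. In non-stressed replicate 4 H2-Oa and H2-Ob lie below their means with the B cell list, while Cd74 and Ciita lie above theirs.

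The group difference was also read within libraries that share sex-linked transcripts. In the 6 libraries with over 100 Ddx3y reads (3 per group), the difference of mean log2 CPM was -1.13 for Cd74, -1.25 for H2-Aa and -1.06 for Ciita. In the other 4 (2 per group) it was -0.57 for Cd74, -0.60 for H2-Aa and -0.038 for Ciita. H2-DMa had -0.37 in the 6 and 0.096 in the 4. The interaction of group with Ddx3y was -1.14 for Ciita (SE 0.46), 0 of 13334 genes passed the adjusted threshold for it (edgeR), and non-stressed replicate 2 is among the 6.

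The other genes of the pathway were taken from 8 lists with 55 genes, of which 54 were tested. Their median log2 fold change was -0.06, 33 being negative and 21 positive. At an unadjusted p under 0.05, 4 were lower and 3 higher, where 2.95% and 2.59% of all genes were, and 0 passed the adjusted threshold (edgeR).

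Among the promoter-binding factors, Rfx5, the subunit of the RFX complex that contacts the X box, had 12.3 ± 3.72 CPM in stressed and 18.6 ± 2.29 CPM in non-stressed libraries (SD, n = 5), and its log2 fold change was -0.59 (SE 0.19, edgeR adjusted p = 0.829). Its partner Rfxap had the opposite sign, 22.1 ± 3.71 CPM in stressed against 17.7 ± 2.19 CPM in non-stressed libraries (log2 fold change 0.32, SE 0.15). Rfxank, Creb1 and the NF-Y genes Nfya, Nfyb and Nfyc had values from -0.20 to 0.045. Of the 7 co-activator and chromatin genes none had an unadjusted p under 0.05, the smallest being that of Ezh2, a histone methyltransferase, at -0.30 (SE 0.18).

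Of the 11 genes that drive Ciita, 5 had negative and 6 positive values, with a median of 0.012. Jak2, a kinase of the interferon gamma receptor, had -0.19 (SE 0.086). The receptor genes Ifngr1 and Ifngr2 had 0.012 (SE 0.11) and 0.034 (SE 0.077), Irf1, a factor at the interferon-responsive promoter of Ciita, 0.051 (SE 0.087), and Spi1, the myeloid factor PU.1, 0.049 (SE 0.061). Of the 7 genes listed as lowering Ciita, 6 had negative values, and Prdm1, a repressor of Ciita in plasma cells, had the smallest p, at -0.46 (SE 0.22).

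The lysosomal genes ran in both directions. Ctsl, a protease that trims the invariant chain in thymic epithelium, had 40.1 ± 6.02 CPM in stressed and 28.6 ± 3.82 CPM in non-stressed libraries (SD, n = 5), and its log2 fold change was 0.49 (SE 0.13, edgeR adjusted p = 0.684). Ctsd, an aspartic protease, had 0.28 (SE 0.12). Sppl2a, which clears the last fragment of the invariant chain from the membrane, had -0.25 (SE 0.09). Ctss, the protease that trims that chain in dendritic cells and B cells, averaged 2211 ± 144 CPM in stressed and 2261 ± 143 CPM in non-stressed libraries (SD, n = 5), at -0.028 (SE 0.063). Marchf1, the ligase that marks surface class II for turnover, had 0.014 (SE 0.082). Of the other genes of recycling and of co-stimulation, Cd83 had the smallest p of its list at -0.63 (SE 0.47) and Cd80, a ligand of CD28, that of its list at 0.47 (SE 0.25).

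**Figure D4:**
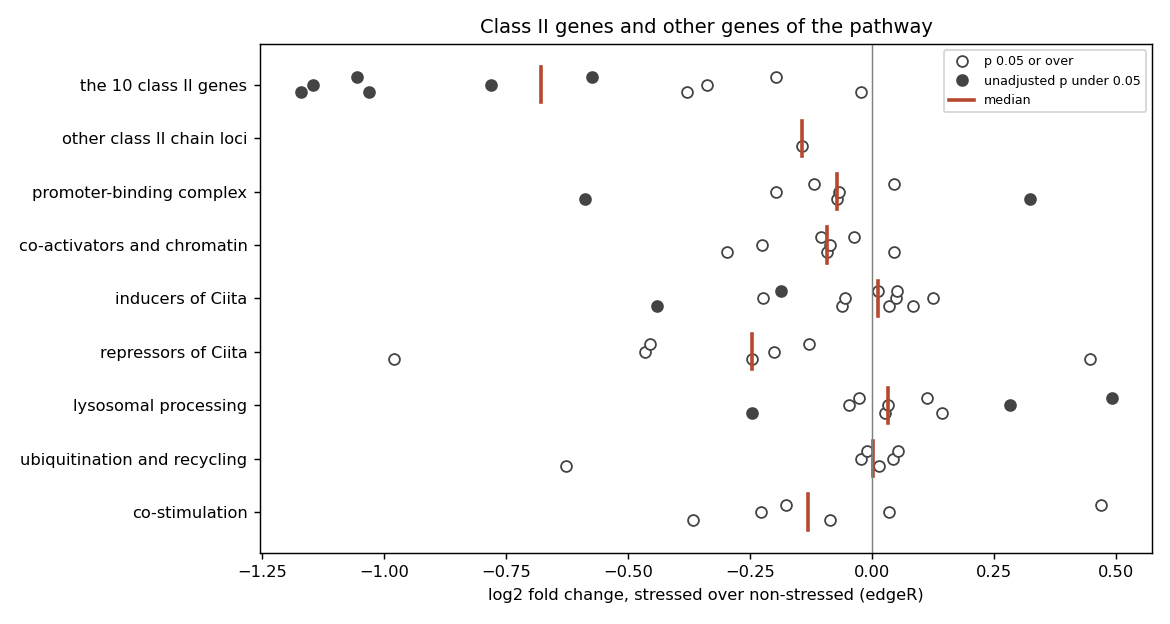
Log2 fold changes, stressed over non-stressed (horizontal axis, edgeR), of the 10 class II genes and of the tested genes of 8 pathway lists, with filled points at an unadjusted p under 0.05 and a red line at each median. The class II median is -0.68, and those of the pathway lists lie between -0.25 and 0.03.

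Genes whose library pattern was most like the chains and Cd74 were ranked by Pearson's r to the mean log2 CPM of H2-Aa, H2-Ab1, H2-Eb1 and Cd74 over 10 libraries, after group means were removed, among 10030 named protein-coding genes at 1 log2 CPM or more. The 10 nearest outside the group were Nup160 (r = 0.95), Jak2 (0.94), Gimap9 (0.93), Gabarap (0.92), Tap2 (0.91), Slc39a1 (0.90), Chd3 (0.90), Ptp4a3 (0.90), Trp53 (0.87) and Bach2 (0.86). Of the other members, Ciita had r = 0.93 with 2 outside genes above it, H2-Ob 0.80 with 31, H2-DMb1 0.78 with 46, H2-DMb2 0.51 with 756, H2-Oa 0.46 with 1023 and H2-DMa 0.27 with 2360. Without non-stressed replicate 2 and stressed replicate 5, the libraries farthest from the median, r was 0.84 for Ciita, 0.87 for Gimap9, 0.74 for Jak2 and 0.52 for Bach2, and 0.42 for H2-DMb1, so the likeness of most of these genes rests in part on those libraries. Gimap9 was low, at 1.98 to 6.42 CPM in stressed and 1.70 to 7.90 CPM in non-stressed libraries. Jak2, also named above, reached 187 CPM in non-stressed replicate 2, the highest of its libraries.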

How the data were processed

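The deposited file holds raw read counts per Ensembl gene, not normalized. The submitters' processing notes name STAR, Trimmomatic and featureCounts, and the mm10 build, with no versions, annotation or strand setting. Groups come from the sample titles. Of 48526 identifiers, 48058 matched a GENCODE symbol (mm10), which also gave exon lengths. No 2 libraries were duplicates (chi-square per degree of freedom 22.3 to 69.8).

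For the test edgeR 4.0.16 was run with filterByExpr (minimum count 10; 13334 genes left), TMM factors, group as the only term, and Benjamini-Hochberg adjustment over all genes at 0.05, after a run on simulated data. SE is the absolute log2 fold change over the square root of F. CPM uses plain library totals. Alternatives were RLE factors, no filter, DESeq2 1.42.0, limma-voom 3.58.1 with quality weights, a robust fit, the replicate number as a block, 3 covariates (Ddx3y, B cell and dendritic cell markers) and each library left out. Values within Ddx3y classes and their interaction were added after the data were seen.

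The members and lists were chosen with earlier results of these data known. Named were all members, each pathway gene at an unadjusted p under 0.05 or with the smallest p of its list, and the 10 nearest genes by r; other genes were picked after their values were seen. The values of 1 pathway gene that met this rule are not reported here.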

Additional observations from a re-analysis of the deposited data

Results flagged for a closer look

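In 3 of the 20 groups of 5 libraries examined (10 genes, each in stressed and non-stressed libraries), 1 library stood far from the others by Dixon's criterion, its gap to the nearest exceeding 0.71 of the range. For normally distributed values chance gives this in about 1 group of 20. The criterion was applied to CPM on the linear scale, and the gaps on the log2 scale were not tested. The 3 genes concerned vary together. In all 3 the library was non-stressed replicate 2. It had 1331 CPM of H2-Aa where the next non-stressed library had 493 CPM, 1158 CPM of H2-Ab1 against 509.8 CPM, and 796 CPM of H2-Eb1 against 288 CPM. It was also the deepest library, with 38237346 counts, and had the highest sums of B cell and of conventional dendritic cell markers, 1165 and 824 CPM. The part of these in its class II level was not tested.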

How the results depend on the processing

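The count of genes past the adjusted threshold, 1 over all 13334 genes, was 10 without a low-count filter, 19 with DESeq2, 2 with limma-voom, 4 with the replicate number as a block, 4 with the B cell covariate and 2 with the dendritic cell covariate, and 1 to 2 with a library left out. The 738 genes at an unadjusted p under 0.05 became 2576 without the filter, 1116 with DESeq2, 1179 with limma-voom, 438 with the dendritic cell covariate, and 560 to 938 with a library left out. Of the 10 class II genes, 6 were lower at that p, 1 with the dendritic cell covariate, 5 with a robust fit, and 5 to 7 with a library left out. None passed the adjusted threshold except 1 without the low-count filter, Cd74 (log2 fold change -1.04, adjusted p = 0.0345), and 0 did with any library left out. Over the other alternatives the adjusted p of Cd74 was 0.121 to 0.999. H2-Oa, at -0.023, was 0.018 with limma-voom, 0.25 with the block, 0.48 with the B cell and 0.44 with the dendritic cell covariate, -0.30 to 0.28 with a library left out, and 0.50 and 0.051 within the libraries with and without Ddx3y. H2-Ob was 0.00043 and 0.19 with these covariates, and -0.55 to 0.046 with a library left out, the highest without non-stressed replicate 2. H2-DMa was 0.096 and Ciita -0.038 in the libraries without Ddx3y. The cause was not tested. For the other 8 genes the sign was negative in all 19 planned fits. The median r between pairs of H2-Aa, H2-Ab1, H2-Eb1 and Cd74, 0.985 with group means removed, was 0.969 without the 2 farthest libraries.

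Samples of the same number correlated at 0.13, 0.16, -0.027, 0.12 and 0.12 in their deviations from group means over all genes, and 4 of 5 stressed libraries correlated best with their own number. Samples of the same number were also in the same Ddx3y class in both groups. No label pairs the numbers and 1 pair did not correlate above 0.1, so the main test takes the samples as unpaired. Whether they are paired is not known. With the replicate number as a block, Cd74 stood at -0.90 (SE 0.16), H2-Aa at -0.98 (SE 0.19), H2-DMb1 at -0.53 (SE 0.15) and Ciita at -0.65 (SE 0.19). Without the block the SEs of Cd74 and H2-Aa were 0.27 and 0.34. In the block fit 0 of the 10 genes passed the adjusted threshold (Cd74, edgeR adjusted p = 0.121). H2-Oa, with 19 to 323 reads a library, had the fewest reads of the 10 genes, and the part of read depth in its spread was not tested.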

Other observations

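H2-Eb2, a further class II beta chain locus beside H2-Eb1, was detected at low levels. It averaged 2.85 ± 1.91 CPM in stressed and 3.16 ± 2.42 CPM in non-stressed libraries (SD, n = 5), with a log2 fold change of -0.14 (SE 0.67, edgeR). Like H2-Oa, it was at its lowest, 0.550 CPM, in non-stressed replicate 4.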
